A study of Mus musculus with 9 samples.

Results

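The genes described here are the ligands of the vascular endothelial growth factor (VEGF) family, their receptor tyrosine kinases and the neuropilin co-receptors, followed in capillaries of growing and adult mouse bone. They were chosen by name, as families of the pathway, and comprised 4 ligands (Vegfa, Vegfb, Vegfc and Pgf), 3 receptors (Flt1, Kdr and Flt4) and 2 neuropilins (Nrp1 and Nrp2), which is 9 of the 39179 genes listed in each count file. RNA came from single capillaries with the cells around them, cut by laser microdissection from the ossification front (OF) of the femur, the zone of new bone under the growth plate. All mice carried the Tg(TIE2GFP)287Sato/J transgene on a C57BL/6 background, in which the Tie2 promoter drives green fluorescent protein in endothelial cells, and the fluorescence guided the cutting. The juvenile group held 5 mice at 4 weeks of age and the adult group 4 mice at 12 weeks of age, with 1 library per mouse pooled from many cut pieces and no treatment in either group. Because osteoblasts, marrow and blood cells around the vessel entered each piece, fewer cells of a type and less RNA per cell cannot be told apart in these libraries.

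VEGF ligands are secreted factors that guide the growth, permeability and survival of blood and lymphatic vessels. VEGFA signals mainly through KDR (VEGFR2), whereas VEGFB and placental growth factor (PGF) bind FLT1 (VEGFR1) as their only receptor kinase, a receptor with weak kinase activity and high affinity that also limits how much VEGFA reaches KDR. VEGFC binds FLT4 (VEGFR3) and, after processing, KDR, and neuropilins hold VEGF and semaphorin ligands beside these kinases and the plexins. In long bones, VEGFA made by hypertrophic chondrocytes and osteoblast lineage cells is known to couple vessel invasion to bone formation at the OF.

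None of the 9 genes passed an adjusted p of 0.05 between juvenile and adult libraries in the edgeR quasi-likelihood test, which called 520 of 13418 tested genes (3.88%), 267 of them higher in juvenile and 253 in adult libraries. With an unadjusted p below 0.05 there were 3 (Vegfb, Pgf and Nrp2), against 17.3% of all tested genes. Vegfb showed the largest difference of the 9 genes, 2.49-fold higher on average in adult libraries, and Nrp2 was 1.42-fold higher on average in juvenile libraries. These were the 2 genes whose normalised counts did not overlap between the ages, as was so for 9.15% of tested genes, with 5.07% higher in juvenile and 4.08% in adult libraries. DESeq2 on the same counts called both of them and 9.47% of all its tested genes. Limma voom called 0 of the 9 genes and 3.43% of all genes, and gave the same 3 genes, and 18.1% of all, an unadjusted p below 0.05. In Vegfa, Vegfc, Flt1, Kdr, Flt4 and Nrp1 the ages overlapped and the interval of the difference included 0.

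Total counts ran from 4856833 to 8077362 per library, so that 3 counts, the limit a count of 0 allows, correspond to between 0.371 and 0.618 CPM, the count scaled to a common library total. The Xist pattern of female mice was present in 7 libraries, 4 of 4 adult and 3 of 5 juvenile ones, so sex and age overlap in part.

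**Figure D1:**
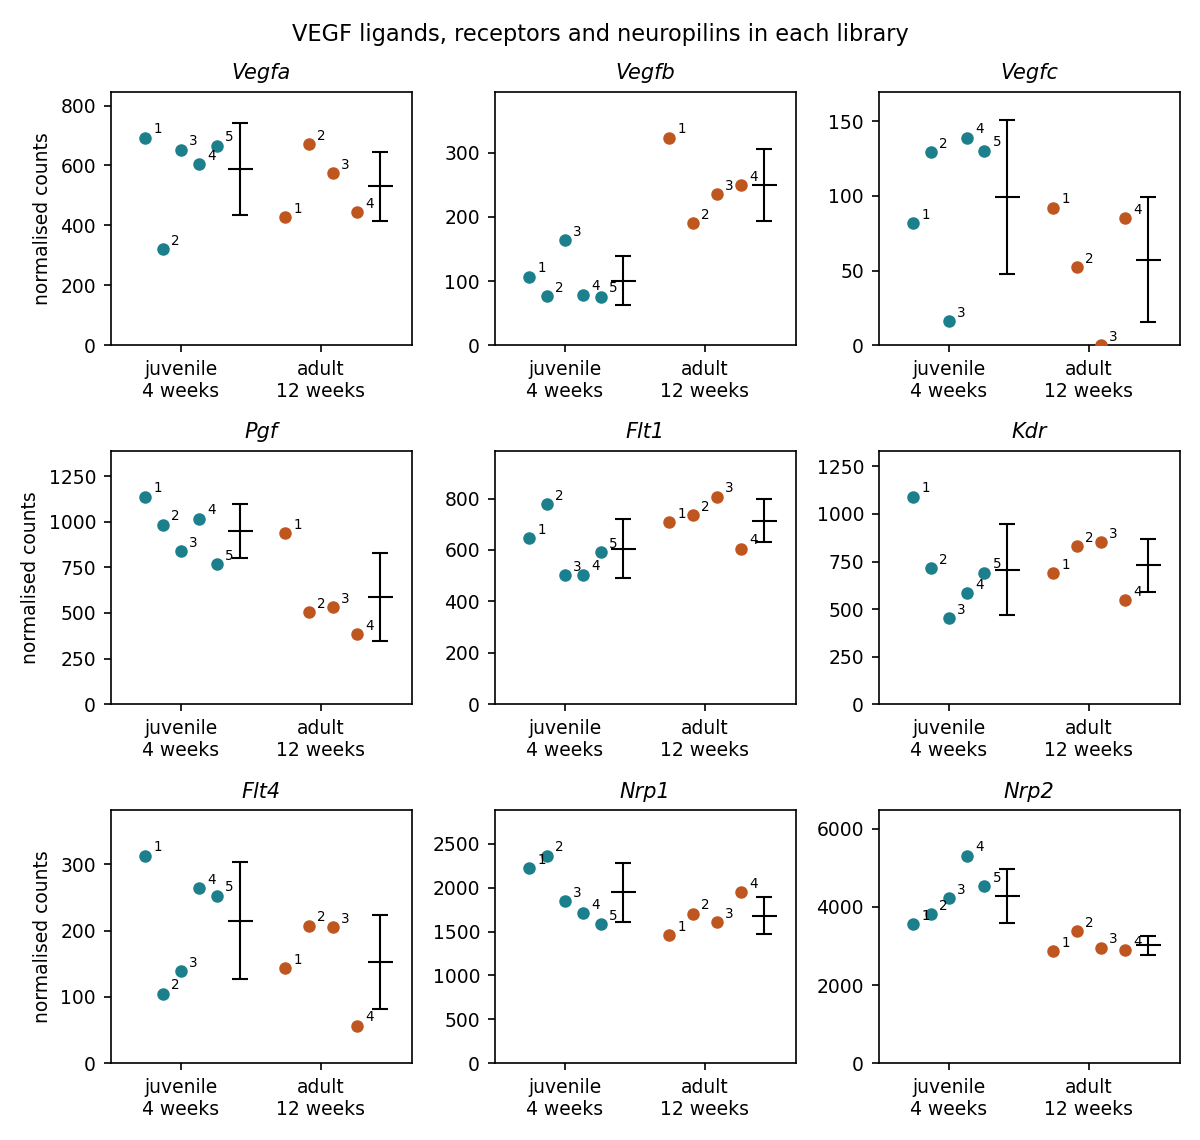
Normalised counts (vertical axis, starting at 0, own scale per gene) of the 9 genes in each juvenile and adult library, with points numbered by replicate and black bars giving mean ± SD. The ages are apart in Vegfb and Nrp2, adult replicate 1 lies among the juvenile libraries in Pgf, and juvenile replicate 2 lies low in Vegfa.

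Among the ligands, Vegfa, the main ligand of KDR, lies on the minus strand of chromosome 17 (ENSMUSG00000023951, chr17:46016993-46032369, GRCm38). Its normalised counts, that is counts scaled to a common library size, were 693, 320.1, 653, 606 and 666 in juvenile replicates 1 to 5 and 429, 671, 575 and 445 in adult replicates 1 to 4. The adult range lay inside the juvenile range, whose low end was juvenile replicate 2. Juvenile mice averaged 588 ± 153 (SD, n = 5), adult mice 529.8 ± 114 (SD, n = 4). The log2 fold change, juvenile over adult here and throughout, was 0.15 with a standard error of 0.25 and a 95% interval from -0.39 to 0.69 (edgeR, adjusted p = 0.846). Any change of Vegfa within that interval is compatible with these libraries. Single libraries moved the value, from 0.047 without adult replicate 1 to 0.30 without juvenile replicate 2, with 0.083 without juvenile replicate 1, 0.26 without adult replicate 2 and 0.058 without adult replicate 4. It was 0.070 over the 7 libraries with the Xist pattern.

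Vegfb, whose only receptor kinase is FLT1, is a short gene on the minus strand of chromosome 19 (ENSMUSG00000024962, chr19:6982473-6987651). Juvenile replicates 1 to 5 held 107, 75.9, 164, 78.9 and 75.8 normalised counts, and adult replicates 1 to 4 held 324, 189.7, 235 and 250.1. The lowest adult library stood above the highest juvenile library, juvenile replicate 3. Juvenile mice averaged 100.4 ± 38.0 (SD, n = 5), adult mice 249.7 ± 55.6 (SD, n = 4), a log2 fold change of -1.32 with a standard error of 0.36 and a 95% interval from -2.08 to -0.55. In edgeR the p was 0.00269 and the adjusted p 0.0599, just short of the threshold, and in DESeq2 the adjusted p was 0.00296. Without juvenile replicate 3 the log2 fold change was -1.56 with an adjusted p of 0.0482 in edgeR, and over the 7 libraries with the Xist pattern it was -1.11 with an adjusted p of 0.308.

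Because Vegfb and Nrp2 were the genes that separated the ages, the stretch upstream of each is shown from the RefSeq promoter windows of GRCm38.p6, 5′ to 3′ on the strand of the gene and ending at the first base before its outermost annotated start. Capitals mark every GCGTG or GGGCGG on either strand, the first a core of hypoxia response elements and the second a GC box. The Vegfb stretch, chr19:6987652-6987901 on the minus strand, holds 2 GCGTG and 4 GGGCGG matches in 250 bases. The Nrp2 stretch, chr1:62703067-62703284 on the plus strand, holds 2 and 4 in 218 bases, some of them sharing bases.
Vegfb: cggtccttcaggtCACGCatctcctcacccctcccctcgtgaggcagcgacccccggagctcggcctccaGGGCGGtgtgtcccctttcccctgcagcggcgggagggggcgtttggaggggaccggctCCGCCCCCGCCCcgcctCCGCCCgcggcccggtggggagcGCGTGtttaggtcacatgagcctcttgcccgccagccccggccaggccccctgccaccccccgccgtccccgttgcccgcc
Nrp2: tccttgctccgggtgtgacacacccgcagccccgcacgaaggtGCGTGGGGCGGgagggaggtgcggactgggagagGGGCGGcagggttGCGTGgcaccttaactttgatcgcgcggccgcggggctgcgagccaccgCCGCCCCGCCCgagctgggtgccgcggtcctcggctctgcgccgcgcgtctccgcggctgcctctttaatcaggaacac
All 9 genes had a window of 300 bases, from 250 before to 50 after the start. Vegfa and Pgf had 2 windows each, and the window nearest the outermost annotated start was used. Every window held GGGCGG, which 35.7% of the 32851 windows in the RefSeq table hold, and 6 held GCGTG, which 32.4% of all windows hold. The other hypoxia core, ACGTG, was in none of the 9 windows and in 19.6% of all windows, and TATAAA was in the Flt1 window and in 13.6% of all windows. The GC content of the 9 windows was 60.7% (Kdr) to 75.3% (Vegfb), and the shares over all windows were not matched for it. These matches describe letters in a window and were not tested against the measurements.

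Vegfc, the ligand of FLT4 and a factor of lymphatic growth (ENSMUSG00000031520, chr8:54077606-54187096, plus strand), was the ligand with the widest scatter. Juvenile libraries held 81.9, 129, 16, 139 and 130.4 normalised counts, and adult libraries held 92.1, 52.4, 0 and 84.9. Adult replicate 3 had 0 reads of 7775714, which allows up to 2.33 normalised counts, whereas its other ligand counts were within the range of the other adult libraries. Averages of 99.3 ± 51.7 (SD, n = 5) at the juvenile and 57.4 ± 42 (SD, n = 4) at the adult age gave a log2 fold change of 0.79 with a standard error of 0.97 and a 95% interval from -1.32 to 2.90 (edgeR, adjusted p = 0.772). The fitted fold change of a gene with a count of 0 depends on the prior count, and for Vegfc it was 0.36 without adult replicate 3, 0.40 over the 7 libraries with the Xist pattern, 1.33 with the replicate number as a block and 1.996 in limma voom. Vegfd, the remaining ligand of FLT4, had 3 reads in adult replicate 2 and 0 in the other 8 libraries and was not tested.

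Pgf, the placental growth factor, a ligand of FLT1 known for roles in bone repair and inflammation, is on the minus strand of chromosome 12 (ENSMUSG00000004791, chr12:85166635-85177790). It was counted at 1138, 985, 841, 1018 and 769 in the juvenile libraries and at 937, 505, 532 and 383 in the adult libraries. Adult replicate 1 fell among the juvenile values, and the other 3 adult libraries lay below every juvenile one. Averages stood at 950.2 ± 146 (SD, n = 5) in juveniles, against 589 ± 241 (SD, n = 4) in adults. This was a log2 fold change of 0.69 with a standard error of 0.25 and a 95% interval from 0.15 to 1.23, for which edgeR gave an unadjusted p of 0.0167 and an adjusted p of 0.159. This value shifted both ways with single adult libraries. The log2 fold change was 0.99 with an edgeR adjusted p of 0.0242 without adult replicate 1. Leaving out adult replicate 4 gave 0.51 (edgeR, unadjusted p = 0.0613), and leaving out adult replicate 2 gave 0.60 (edgeR, unadjusted p = 0.0533).

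**Figure D2:**
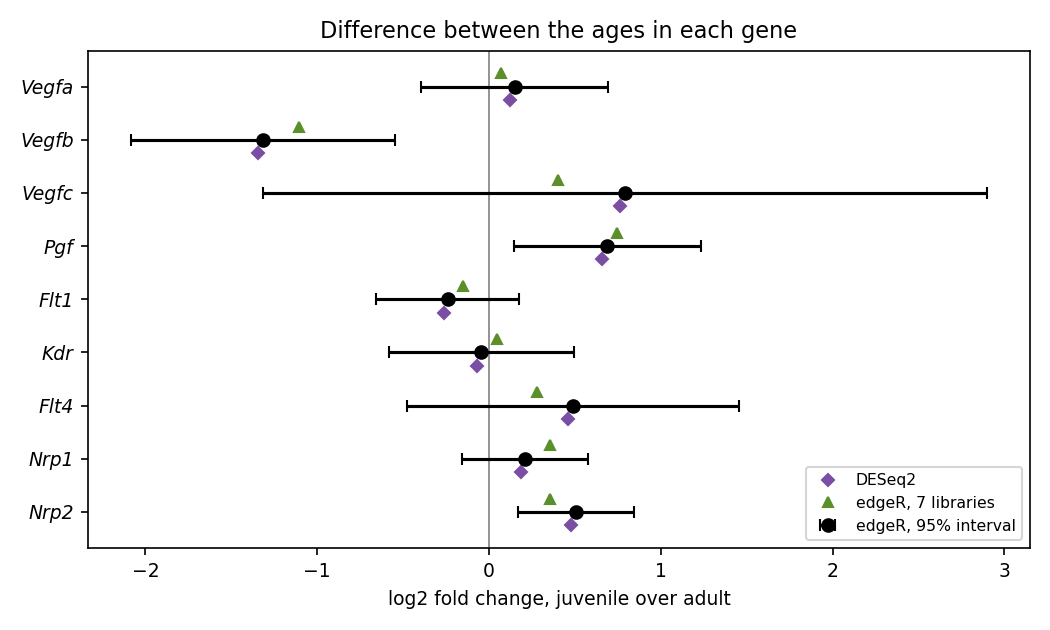
Log2 fold change, juvenile over adult (horizontal axis), for each of the 9 genes. Black points with bars are edgeR estimates with 95% intervals over 9 libraries, diamonds DESeq2 estimates and triangles edgeR estimates over the 7 libraries with the Xist pattern; the intervals of Vegfb, Pgf and Nrp2 leave out 0 and that of Vegfc is the widest.

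The 3 receptors gave no call. Flt1, the receptor of VEGFA, VEGFB and PGF (ENSMUSG00000029648, chr5:147561604-147726011, minus strand), had 646, 779, 502, 504 and 591 normalised counts in juvenile and 708, 736, 808 and 605 in adult libraries. From averages of 605 ± 115 (SD, n = 5) for juvenile mice, and 714 ± 83.8 (SD, n = 4) for adult mice, the log2 fold change was -0.24 with a standard error of 0.19 and a 95% interval from -0.66 to 0.18 (edgeR, adjusted p = 0.607), and -0.15 over the 7 libraries with the Xist pattern. The counts are per gene, so that transcripts of the soluble, decoy form of FLT1 and of the membrane receptor were not told apart, and neither were the splice forms of Vegfa, for which the annotation lists 13 transcripts.

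Kdr, the receptor through which VEGFA drives sprouting (ENSMUSG00000062960, chr5:75932827-75978458, minus strand), showed the smallest difference of the 9 genes. Juvenile libraries held 1091, 716, 454, 586 and 692 normalised counts, and adult libraries 691, 829, 851 and 549. The juvenile values spread on both sides of the adult range. Averaging 708 ± 238 (SD, n = 5) in juveniles, against 729.9 ± 140.0 (SD, n = 4) in adults, Kdr had a log2 fold change of -0.044, with the standard error 0.25 and the 95% interval -0.58 to 0.50 (edgeR, adjusted p = 0.965).

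Flt4, the receptor of VEGFC on lymphatic and on sprouting blood endothelium (ENSMUSG00000020357, chr11:49609263-49652739, plus strand), had 313, 105, 139, 264 and 253 normalised counts in juvenile and 143, 208, 205 and 56.6 in adult libraries. Juvenile replicates 1, 4 and 5 were above all adult libraries and adult replicate 4 was below all juvenile ones. Its log2 fold change of 0.49 had a standard error of 0.45 and a 95% interval from -0.48 to 1.45 (edgeR, adjusted p = 0.663), on averages of 215 ± 88.5 (SD, n = 5) for juveniles, against 153 ± 70.9 (SD, n = 4) for adults. The log2 fold change fell to 0.198 without adult replicate 4, and was 0.31 without juvenile replicate 1 and 0.28 over the 7 libraries with the Xist pattern. Markers of lymphatic endothelium summed to between 21.4 and 49.8 CPM in juvenile and between 6.93 and 52.0 CPM in adult libraries. Of the 5 markers, 4 (Prox1, Lyve1, Reln and Mmrn1) were at 0 in at least 1 library.

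The neuropilins carried the most counts. Nrp1, the neuropilin of arterial endothelium and a partner of KDR (ENSMUSG00000025810, chr8:128358604-128503363, plus strand), had 2219.9, 2366, 1849.9, 1708 and 1588 normalised counts in juvenile and 1458, 1706, 1609 and 1953 in adult libraries. Juvenile replicates 1 and 2 stood above all adult libraries and the other 3 lay within the adult range. The log2 fold change was 0.21 with a standard error of 0.17 and a 95% interval from -0.16 to 0.58 (edgeR, adjusted p = 0.607), on averages of 1947 ± 334 (SD, n = 5) for juveniles, against 1682 ± 208 (SD, n = 4) for adults. It was 0.13 without juvenile replicate 2, 0.13 without adult replicate 1 and 0.35 over the 7 libraries with the Xist pattern. An exon of Nrp1 overlaps the microRNA gene Mir1903 over 80 bases on the same strand, and Mir1903 had 0 counts in every library.

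Nrp2, the neuropilin of venous and lymphatic endothelium that also binds VEGFC and class 3 semaphorins (ENSMUSG00000025969, chr1:62703285-62818695, plus strand), had 3553, 3811, 4225, 5312 and 4523 normalised counts in juvenile libraries. Adult libraries held 2861, 3378, 2957 and 2887, all below the lowest juvenile library. Averages of 4285 ± 685 (SD, n = 5) for juvenile mice, against 3021 ± 242 (SD, n = 4) for adult mice, gave a log2 fold change of 0.50 with a standard error of 0.16 and a 95% interval from 0.17 to 0.84. The p was 0.00667 and the adjusted p 0.0966 in edgeR, and the adjusted p was 0.0172 in DESeq2. Juvenile replicates 4 and 5, the libraries without the Xist pattern, held the 2 highest values, and over the other 7 libraries the log2 fold change was 0.36 with an adjusted p of 0.423 in edgeR.

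**Figure D3:**
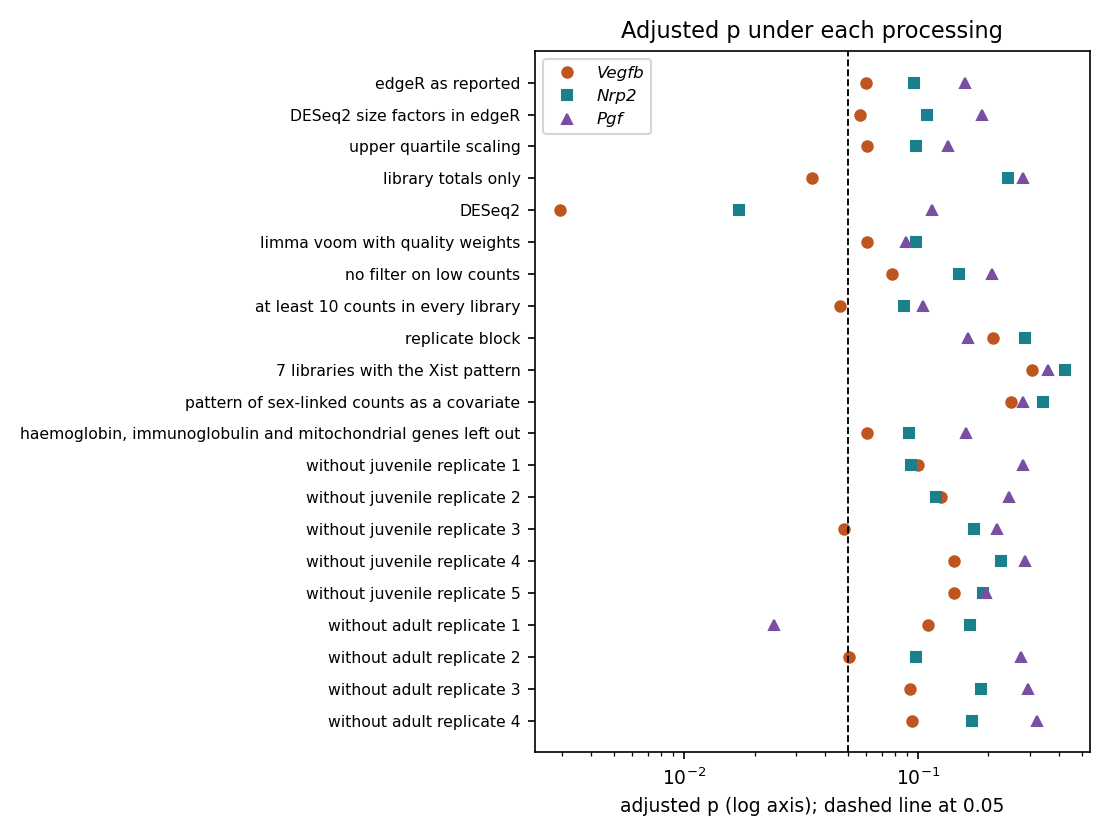
Adjusted p (horizontal log axis) of Vegfb, Nrp2 and Pgf under each way of processing the counts, with the 0.05 threshold as a dashed line. Vegfb ranges from 0.00296 to 0.308 and crosses the line under 4 of the alternatives, Nrp2 crosses it under DESeq2, and Pgf when adult replicate 1 is left out.

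For all 9 genes the spread between mice exceeded counting error. The coefficient of variation was between 3.46 and 11.1 times the value expected from Poisson counting of the mean number of reads. Vegfb rested on 57 to 123 reads in juvenile and 181 to 446 in adult libraries, for which counting alone would give a coefficient of variation of 5.66% in adult libraries against 22.3% observed. Pgf in adult libraries was the farthest from counting error, with 40.8% observed against 3.69%.

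Levels of different genes were compared as CPM per kilobase of merged exons. In juvenile libraries Nrp2 at 57.7 ± 9.21 (SD, n = 5) and Pgf at 52.1 ± 8.03 led, followed by Nrp1 at 31.7 ± 5.43, Vegfa at 21.9 ± 5.69, Kdr at 12.5 ± 4.2, Vegfb at 9.97 ± 3.78, Flt1 at 7.13 ± 1.36, Vegfc at 6.46 ± 3.36 and Flt4 at 4.15 ± 1.71. Pgf above Nrp1 and Nrp1 above Vegfa were the neighbours in that order that kept their order in all 5 libraries, the first of them on this length alone. In adult libraries the order was Nrp2 at 40.6 ± 3.25 (SD, n = 4), Pgf at 32.3 ± 13.2, Nrp1 at 27.4 ± 3.38, Vegfb at 24.8 ± 5.52, Vegfa at 19.7 ± 4.26, Kdr at 12.9 ± 2.47, Flt1 at 8.43 ± 0.988, Vegfc at 3.73 ± 2.73 and Flt4 at 2.96 ± 1.37.

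There, Vegfa above Kdr, Kdr above Flt1 and Flt1 above Vegfc held in all 4 libraries. Vegfb moved from rank 6 in juvenile to rank 4 in adult libraries, ahead of Vegfa in 3 of 4 adult libraries. The length used mattered for the order. Per kilobase of the longest transcript, Nrp1 at 73.5 came ahead of Nrp2 at 71.6 in adult libraries, and Flt1 at 14 came ahead of Vegfb at 12.5 in juvenile libraries. In juvenile libraries Nrp1 at 85.1 then also came ahead of Pgf at 72.8, in 4 of 5 libraries, and in adult libraries Flt4 at 3.90 came ahead of Vegfc at 3.73.

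**Figure D4:**
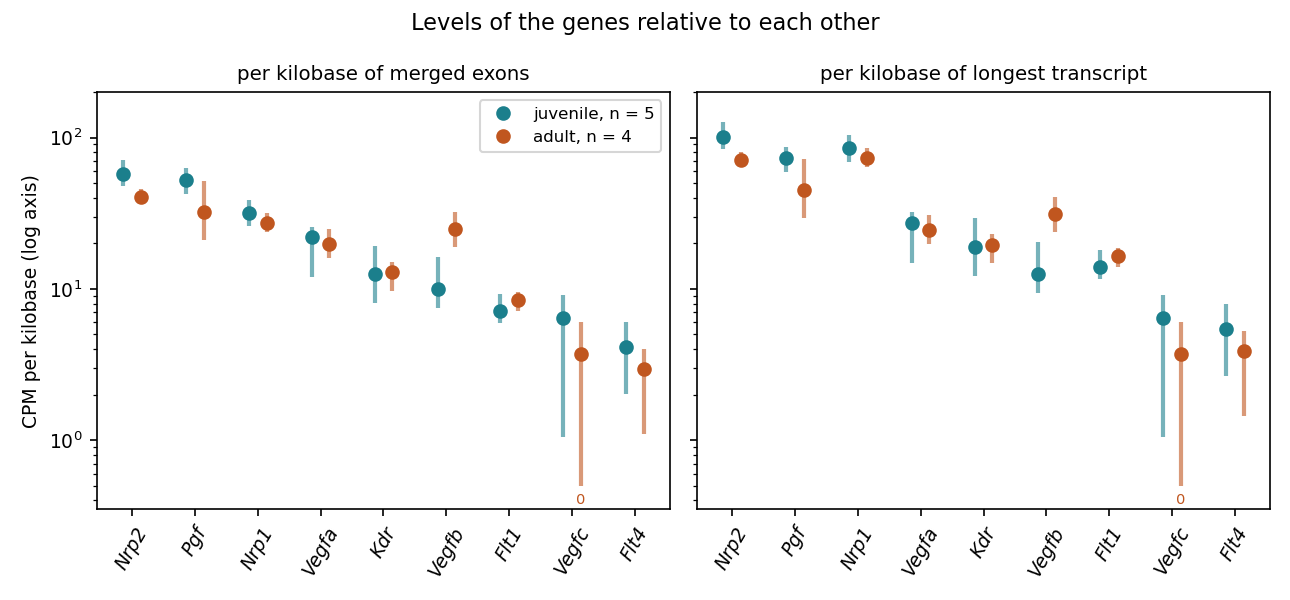
CPM per kilobase (log axis) of the 9 genes, per kilobase of merged exons on the left and of the longest transcript on the right. Points are means of 5 juvenile and 4 adult libraries, lines run from the lowest to the highest library, and a 0 marks the adult library without Vegfc reads; Vegfb is the gene that changes rank most between the ages.

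Ratios of genes within a library do not depend on library size. For 9 such ratios the ages were set against each other in an exact permutation test, two-sided, where 0.00794 is the smallest p that 5 against 4 libraries allow. The log2 ratio of Vegfa to Vegfb was 2.67, 2.05, 1.98, 2.91 and 3.10 in juvenile and 0.40, 1.81, 1.28 and 0.83 in adult libraries. All 5 juvenile libraries were above all adult ones, a difference of 1.46 on the log2 scale or 2.75-fold, with the exact p at its smallest possible value of 0.00794 and 0.0714 after adjustment over the 9 ratios. Vegfb counts enter both this ratio and the comparison above, so this is the same difference on another scale.

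Flt1 to Kdr RNA had a log2 ratio of -0.19 ± 0.36 (SD, n = 5) for juvenile mice, against -0.018 ± 0.14 (SD, n = 4) for adult mice, a difference of -0.17 (exact p = 0.452). This ratio of counts was not corrected for gene length and does not tell soluble from membrane FLT1, so it gives no balance of the proteins. Flt4 to Kdr differed by 0.61 (exact p = 0.167) and Nrp1 to Nrp2 by -0.29 (exact p = 0.262). Vegfa to Pgf differed by -0.63 (exact p = 0.175). Adjusted over the 9 ratios, the p was 0.509 for Flt1 to Kdr and 0.49 for each of the other 3. Over the 7 libraries with the Xist pattern the difference in Nrp1 to Nrp2 was -0.0028 and that in Flt4 to Kdr 0.30. Single libraries moved Flt1 to Kdr to -0.026 (without juvenile replicate 1), Flt4 to Kdr to 0.33 (without adult replicate 4), Nrp1 to Nrp2 to -0.17 (without juvenile replicate 4) and Vegfa to Pgf to -0.41 and -0.97 (without juvenile replicate 2 and adult replicate 1).

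**Figure D5:**
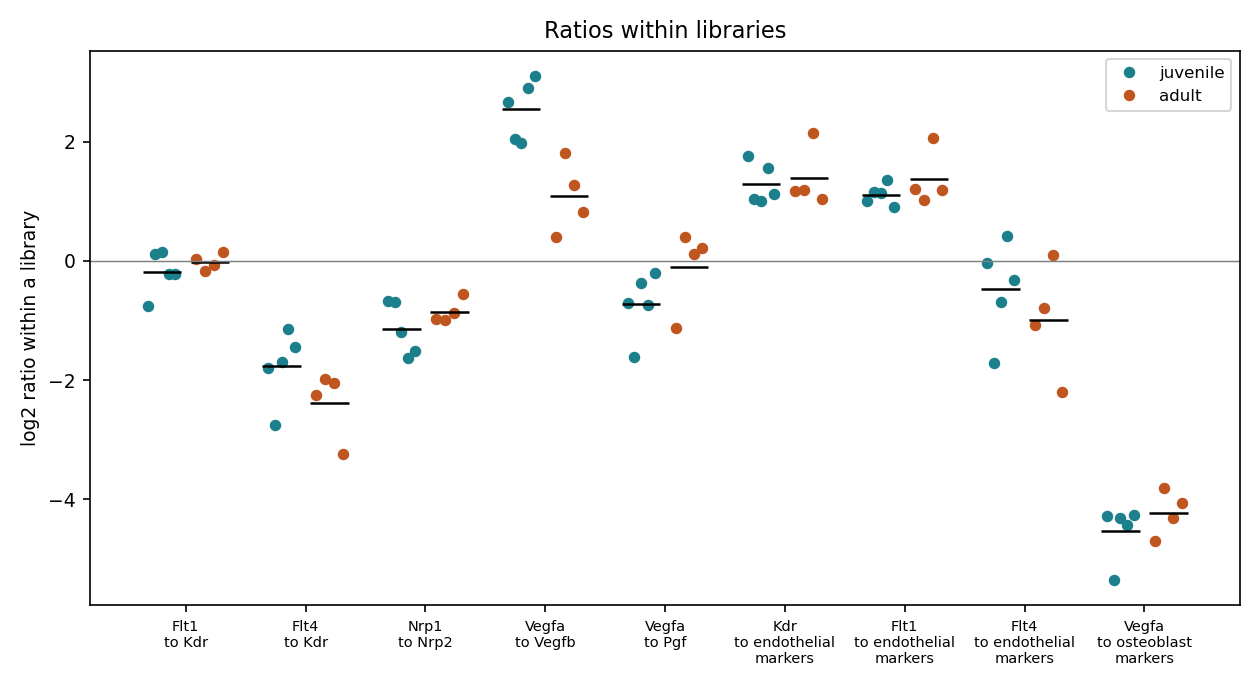
Log2 ratios within each library (vertical axis) of pairs of genes, or of a gene to the mean log2 CPM of endothelial or osteoblast markers, with points for libraries and bars for group means. The juvenile and adult libraries are apart in the ratio of Vegfa to Vegfb and overlap in the other ratios.

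The cells in the pieces were checked with marker genes. All 17 endothelial markers passed the filter on low counts, none was called, and their summed level was 725 to 1149 CPM in juvenile and 866 to 1219 CPM in adult libraries, with no marker at 0 in any library. Against the mean of these markers, Kdr differed between the ages by -0.093, Flt1 by -0.26 and Flt4 by 0.52 on the log2 scale (exact p = 0.746, 0.302 and 0.381). Relative to endothelial markers the receptors therefore also overlapped between the ages. Single libraries carried these values. Without adult replicate 3 the difference was 0.16 for Kdr, -0.029 for Flt1 and 0.885 for Flt4. For Flt4 it was 0.12 without adult replicate 4, 0.83 without juvenile replicate 2 and 0.30 without juvenile replicate 4.

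Transcripts of other cell types differed with age. Osteoblast markers, of which 6 of 12 were called higher in juvenile and 2 in adult libraries, summed to 171929 to 214135 CPM in juvenile and 63718 to 94208 CPM in adult libraries. Erythroid and neutrophil markers were higher in adult libraries. Of the erythroid markers 7 of 7 tested were called, with sums of 416 to 2555 CPM in juvenile and 4635 to 36810 CPM in adult libraries, and of the neutrophil markers 8 of 8 tested, with sums of 5.98 to 64.0 against 93.0 to 4324 CPM. Macrophage markers summed to 481 to 811 against 1011 to 1675 CPM, with 1 of 7 tested called, and megakaryocyte and platelet markers to 13.0 to 26.3 against 62.4 to 4327 CPM, with 1 of 3 called. The ages did not overlap in any of these 5 sums, just as in Vegfb and Nrp2, and their part in the values of Vegfb, Pgf and Nrp2 was not tested. Vegfa, relative to the mean of the osteoblast markers, differed by -0.31 on the log2 scale (exact p = 0.365). With the summed CPM of the same markers, which itself separated the ages, the difference was -1.03 (exact permutation adjusted p = 0.0357), and without juvenile replicate 2 the first value was -0.099. It was -0.47 without adult replicate 1 and -0.17 without adult replicate 2.

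The remaining marker sums overlapped between the ages. Growth plate chondrocyte markers summed to 2203 to 3145 CPM in juvenile and 1842 to 6339 CPM in adult libraries, osteoclast markers to 9128 to 14300.4 against 14114 to 20881 CPM, and pericyte and smooth muscle markers to 425 to 695 against 391 to 737 CPM. Markers of Cxcl12-abundant stroma summed to 311 to 472 against 426 to 1196 CPM and B cell markers to 37.1 to 73.2 against 22.0 to 217 CPM. Of these lists, chondrocytes had 1 marker called higher in juvenile and 2 in adult libraries, osteoclasts 0 and 2, stroma 1 and 1, and the pericyte and B cell lists 0 in edgeR, where 3 of 8 and 1 of 5 tested had an unadjusted p below 0.05. A sum is led by its most abundant markers. Median log2 fold changes were -2.48 for chondrocyte, -2.42 for B cell, -1.16 for stroma, -0.12 for osteoclast and 0.024 for pericyte markers. Above 0 were 2 of 10, 0 of 5, 2 of 7, 2 of 8 and 4 of 8 tested markers, in that order.

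Genes on either side of the receptors were read from 5 lists. In the list of signal transducers of VEGF receptors, which also held the untested ligand Vegfd, 50 of 53 genes were tested. Of these, 1 was called in each direction, with a median log2 fold change of -0.041, against -0.0066 over all tested genes. Shc2, an adaptor that binds KDR, rose in juvenile libraries to 1221 ± 158 (SD, n = 5), against 392 ± 197 (SD, n = 4), normalised counts (log2 fold change 1.64 ± 0.34 SE, edgeR adjusted p = 0.0195). Nfatc1, a calcium-regulated transcription factor of endothelial cells that is also the master regulator of osteoclasts, was called higher in adult libraries (772 ± 176 against 1616 ± 302, log2 fold change -1.07 ± 0.21 SE, edgeR adjusted p = 0.0142).

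Of the transcripts known to be induced by VEGF in endothelial cells, 27 of 33 were tested, with 1 call in each direction and a median of -0.027. Adamts9, a matrix protease, was higher in juvenile libraries (940.1 ± 138 against 517 ± 19.6, log2 fold change 0.86 ± 0.18 SE, edgeR adjusted p = 0.0173). Vcam1, an adhesion molecule also made by marrow stroma and macrophages, was lower in juvenile libraries (119 ± 107 against 940.5 ± 251, log2 fold change -2.97 ± 0.54 SE, edgeR adjusted p = 0.0117). Hypoxia regulators of Vegfa and their target transcripts, 24 of 28 tested, had a median of -0.0040 and 1 call. That call was Car12, a carbonic anhydrase, at 1386 ± 649 in juvenile and 367 ± 158 in adult libraries (log2 fold change 1.92 ± 0.41 SE, edgeR adjusted p = 0.0217). The regulators of hypoxia signalling on that list, such as Hif1a and Epas1, were not called.

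The list of semaphorins and plexins, the other partners of the neuropilins, also held L1cam and Gipc1. Of its 16 genes 14 were tested, with a median log2 fold change of 0.41 and 1 call. Above 0 were 11 of them (78.6%), as were 49.5% of all tested genes. Sema3b, a secreted ligand of neuropilins, was at 597 ± 139 in juvenile and 125 ± 46.8 in adult libraries (log2 fold change 2.26 ± 0.31 SE, edgeR adjusted p = 0.00263). For genes that trap or release VEGF in the matrix or sit beside its receptors, 32 of 37 were tested, 2 were called higher in juvenile and 0 in adult libraries, and the median was 0.12. Mmp2, a gelatinase that acts on bone matrix, was at 4815 ± 286 against 1794 ± 431 (log2 fold change 1.42 ± 0.17 SE, edgeR adjusted p = 0.00109). Gpc1, a heparan sulphate proteoglycan that binds VEGF, was at 7222 ± 1317 against 3816 ± 489 (log2 fold change 0.92 ± 0.17 SE, edgeR adjusted p = 0.0135). In all, 8 of 146 list genes tested were called (5.48%), where 3.88% of all tested genes were, so the lists as wholes lay near the background.

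Sema3b and Mmp2 were called under each of the 20 alternatives run, and the other 6 lost the call under at least 1 of them. Over the 7 libraries with the Xist pattern, as with that pattern as a covariate, these 6 were not called, on fewer libraries or with 1 more term, and kept their direction. Over the 7 libraries the log2 fold change was 1.58 for Shc2, -1.01 for Nfatc1, 0.76 for Adamts9, -2.635 for Vcam1, 1.501 for Car12 and 0.90 for Gpc1. Single libraries also ended calls in edgeR, with adjusted p of 0.0525 for Shc2 without juvenile replicate 4 and 0.0521 without adult replicate 3, and 0.0508 for Adamts9 without juvenile replicate 5. For Car12 the adjusted p was 0.0566, 0.0583 and 0.0621 without juvenile replicates 3, 4 and 5 and 0.0607 without adult replicate 4. The replicate number as a block gave edgeR adjusted p of 0.0555 for Gpc1, 0.0596 for Nfatc1, 0.0686 for Vcam1 and 0.127 for Adamts9. Shc2 and Car12 kept their calls with the block. Limma voom gave adjusted p of 0.0525 for Adamts9 and 0.0722 for Car12. Osteoblast marker sums moved with the genes higher in juvenile libraries and erythroid, neutrophil, macrophage and megakaryocyte marker sums with those higher in adult libraries, and their part in these differences was not tested.

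Likeness between genes was described by the root mean square difference of their log2 CPM over the 9 libraries, after centring each gene. Of the 36 pairs of the 9 genes, Flt1 and Kdr were the closest at 0.27, followed by Flt1 and Nrp1 at 0.31 and Nrp1 and Nrp2 at 0.35. Vegfb and Vegfc were the farthest apart at 2.34. Genes with little spread are close on this measure whether or not they vary together. Flt1 had an own spread (root mean square of its centred log2 CPM) of 0.24, below its distances to Kdr and to Nrp1. Over all tested genes, those nearest to Vegfa were Dnajb14, Znhit6 and Gm17029 at 0.13, 0.15 and 0.16, against a median of 0.76 for all genes. Nearest to Flt1 were Skap2, Glb1 and Eid1 at 0.10, 0.11 and 0.12, and nearest to Kdr were Dcps, Grk6 and Crot at 0.18, 0.20 and 0.20. Flt4 had no gene closer than Zfp618 at 0.29, followed by Zfp579 at 0.30 and Atxn1 at 0.31, with its own spread at 0.72. The libraries share their depth and cell makeup across genes, and the nearest of 13418 genes are close by selection, so these distances describe the libraries only.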

How the data were processed

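RNA of microdissected capillaries with surrounding cells was reverse transcribed and amplified by the submitters with a poly-A dependent low-input kit and sequenced in paired reads. The authors aligned reads to mouse GRCm38 (mm10) with TopHat2 and Bowtie2, and featureCounts is among the tools in their processing notes. The annotation release, strand setting and treatment of shared reads are not given in the sources used here. The deposited files hold raw read counts per Ensembl gene, 1 file per mouse, not normalised. Amplified reads carry no molecular identifiers, and the floors cover counting error only. The edgeR intervals also include the spread between mice.

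Gene symbols and positions came from GENCODE M21, which matched 37693 of 39179 identifiers (96.2%) and 99.3% or more of each library's counts. Groups came from the sample titles. Genes passing filterByExpr were tested with edgeR 4.0.16 (TMM scaling, glmQLFit, glmQLFTest, 5 juvenile against 4 adult libraries, Benjamini-Hochberg over 13418 genes) in R 4.3.3, with DESeq2 1.42.0, the method of the study, and limma 3.58.1 voom as alternatives. Fold changes are log2, ratios within libraries used log2 CPM with a prior count of 2, and the tests of ratios were exact permutation tests (scipy 1.17.1). The fits were tested on simulated data with 200 changed genes. No pair of libraries agreed within counting noise. Separate mice are the replicates.

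The 9 genes and all lists were chosen with earlier results of these data known. Named besides the 9 genes were, from each pathway list, up to 4 genes with the smallest adjusted p below 0.05 and, for Vegfa, Flt1, Kdr and Flt4, the 3 nearest genes by root mean square difference. The marker Ahsp was not matched. Alternatives were other scalings, filters, tools, a replicate block, 7 libraries with the Xist pattern or that pattern as a covariate, leaving out each library, and leaving out haemoglobin, immunoglobulin and mitochondrial genes.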

Additional observations from a re-analysis of the deposited data

Results flagged for a closer look

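Among 36 groups of 4 or 5 libraries examined over the 9 genes and 9 ratios, 3 had a single library set apart, by the gap to its nearest neighbour as a share of the range of the group, where chance gives 1.8. The normalised count of Vegfa in juvenile replicate 2 was 320.1, and the remaining juvenile libraries held 605.6 to 692.9 (gap over range 0.766). The same library had a log2 ratio of Vegfa to osteoblast markers of -5.356, with -4.423 to -4.262 in the others (gap over range 0.853), which rests on the same Vegfa count. In adult replicate 3 the log2 ratio of Kdr to endothelial markers was 2.143, and the remaining adults lay between 1.042 and 1.194 (gap over range 0.862). Its Kdr count of 851 was close to the 829 of adult replicate 2. The ratios of Flt1 and Flt4 to endothelial markers, at 2.067 and 0.099, were also the highest of the adults in this library. These receptor ratios share the marker mean. No explanation was tested for these libraries.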

How the results depend on the processing

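Of the fold changes of the 9 genes under all alternatives, 166 kept their direction and side of the threshold, 7 reversed and 6 newly passed it. None of the 9 genes was called in edgeR as reported, 1 was called with scaling by library totals (Vegfb), 1 with at least 10 counts in every library (Vegfb), 2 with DESeq2 (Vegfb and Nrp2) and 0 to 1 when a library was left out. The calls over all genes, 520 as reported, were 1490 with DESeq2, 73 in the 7 libraries with the Xist pattern, 159 with that pattern as a covariate and 262 to 651 when a library was left out. Genes of the 5 lists called numbered 8 as reported, 13 with library totals, 21 with DESeq2, 13 with at least 10 counts in every library, 2 in the 7 libraries, 2 with the covariate and 6 to 14 when a library was left out. Scaling by library totals shifted the median of all genes by -0.17 and the share of calls higher in juvenile libraries from 51.4% to 29.1%, and Vegfa then reversed to -0.013, with Flt1 at -0.41, Nrp1 at 0.038 and Nrp2 at 0.33. Voom shifted that median by 0.10.

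Kdr reversed to 0.049 in the 7 libraries and 0.047 with the covariate, and ran from -0.25 to 0.079 when a library was left out. The ratio of Kdr to endothelial markers was 0.083 with summed CPM of the markers and ran from -0.21 to 0.16 when a library was left out, the positive value being without adult replicate 3. The ratio of Vegfa to osteoblast markers was -1.03 with summed CPM (exact permutation adjusted p = 0.0357), where the sum differs between the ages. The cause of the other shifts was not tested. Vegfb kept its direction throughout, with adjusted p from 0.00296 to 0.308. For Vegfc no value was obtained with at least 10 counts in every library.

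Replicate numbers are shared between the ages in the labels but name different mice. Deviations of same-numbered libraries from the mean of their age had small correlations (r = 0.027, -0.032, 0.019 and 0.030). Still, 3 of 4 juvenile libraries correlated best with the adult library of their own number. Centring within each age holds such correlations near 0 on average, so whether the numbers mark a shared batch cannot be told from them. With the replicate number as a block, 89 genes in all, 4 list genes and 0 of the 9 genes were called, and juvenile replicate 5, which has no adult partner, adds nothing to that comparison. Expected counting error was largest in Vegfb, Vegfc and Flt4, the genes with the fewest reads, but stayed below the observed spread between mice in each.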

Other observations

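Behind the summed endothelial level, the 17 markers did not shift as 1 group. The transcription factor Sox18 had the lowest p, with a log2 fold change of -0.93 ± 0.31 SE and means of 389 normalised counts in juvenile and 742 in adult libraries, which did not pass (edgeR adjusted p = 0.120). Tek, the gene of the Tie2 receptor whose promoter drives the reporter, was at 188 in juvenile and 113 in adult libraries (log2 fold change 0.74 ± 0.42 SE, adjusted p = 0.403). Emcn, the sialomucin that marks bone capillaries, was at 377 and 356 (log2 fold change 0.08 ± 0.34 SE, adjusted p = 0.950). Above 0 were 7 of the 17 markers and the median log2 fold change was -0.09.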
